A study of Mus musculus with 8 samples.

Results

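The 9 genes studied here encode enzymes of the tricarboxylic acid cycle, and their transcripts were followed in mouse spermatocytes: Cs, Idh3a, Idh3b, Idh3g, Ogdh, Suclg1, Sdha, Fh1 and Mdh2. They were chosen by name, as the rows of the deposited expression table that carry these 9 gene names, and make up 9 of the 54532 genes listed. All 9 passed the filter on low values used for the tests, an FPKM above 1 in at least 1 library, as did 21175 genes in all. FPKM (fragments per kilobase of transcript and per unit of library size) divides reads by gene length and library size, so that levels of different genes can be set side by side.

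The tricarboxylic acid cycle runs in the mitochondrial matrix, where acetyl groups from pyruvate and fatty acids are oxidised to carbon dioxide and the electrons are passed to the respiratory chain as NADH and, at succinate dehydrogenase, to ubiquinone. During spermatogenesis the reliance on glycolysis and on mitochondrial oxidation changes as germ cells move from spermatogonia into meiosis, and spermatocytes are generally regarded as users of lactate and pyruvate supplied by Sertoli cells. Several enzymes of the pathway have a second form encoded by another gene, in some cases one made in germ cells. MFN2, the deleted protein, is a GTPase of the outer mitochondrial membrane that fuses mitochondria with each other.

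The study isolated spermatocytes from C57BL/6J mice at postnatal day (PD) 24 and PD 52 by sedimentation through a BSA gradient, as pachytene (P) or as leptotene and zygotene (L/Z) cells. MFN2 cKO mice had both Mfn2 alleles floxed (Mfn2 loxp/loxp) and carried Stra8-Cre, which recombines in male germ cells from early postnatal spermatogonia on and removes an exon of Mfn2 there. MFN2 WT mice are labelled Mfn2 loxp/loxp without Cre, and the methods describe the controls as littermates with 1 or both alleles floxed. The 8 combinations of stage, genotype and age had 1 library each, with 14340665 to 20379950 reads on genes, and it is not stated whether a library pooled several mice. A single cKO and WT pair therefore has no replicate check. Effects common to several pairs were tested with limma over the 8 libraries, with the pair as a block. The p-values had Benjamini-Hochberg adjustment over the 21175 genes and measure the spread between these libraries. The labels do not say whether the same mice gave both stages, so pairs that differ only in stage may not be independent.

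Mfn2 itself, read over the whole gene and thus including exons outside the deletion, was lower in MFN2 cKO in all 4 pairs. In P cells it had 39.6 FPKM in cKO and 77.1 in WT at PD 24, and 50.1 and 62.2 at PD 52. In L/Z cells it had 34.3 and 82.2 at PD 24, and 47.9 and 97.5 at PD 52. MFN2 cKO libraries thus kept 41.8% to 80.5% of the level of their WT pair, with the highest share in P cells at PD 52.

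The libraries did not follow their labels for every marker list, and no listed marker was at 0 in all libraries. Of the 10 pachytene markers, 2 were called higher in P (Piwil1 and Pou5f2), 2 were called lower (Spag6 and Pgk2) and 6 were not called. Of the 10 leptotene and zygotene markers, 5 rose in P, Spo11 and Sycp3 among them, and 2 fell. The summed FPKM of 11 genes of round and elongating spermatids was 393 to 19765 in L/Z and 109 to 4789 in P, and 10 of the 11 were called lower in P. It was also 109 to 2481 at PD 24 and 2172 to 19765 at PD 52, with 10 of the 11 called higher at PD 52. Markers of somatic cells moved as well. The 10 Sertoli cell genes summed to 332 to 819 FPKM in P and 27.2 to 261 in L/Z, and all 10 were called higher in P. All 8 macrophage genes and the 5 peritubular myoid genes tested were called lower in P. The 8 genes of Leydig cells, the source of testosterone, summed to 102 to 666 FPKM in MFN2 cKO and 20.7 to 261 in MFN2 WT, and 4 of them were called higher in cKO. The macrophage genes summed to 22.4 to 174 FPKM in MFN2 cKO and 6.04 to 41.7 in MFN2 WT, higher in cKO in each pair, with 0 of 8 called for genotype and 8 of 8 at an unadjusted p under 0.05 by limma. In such libraries a smaller number of cells of a type and less RNA per cell cannot be told apart.

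**Figure D1:**
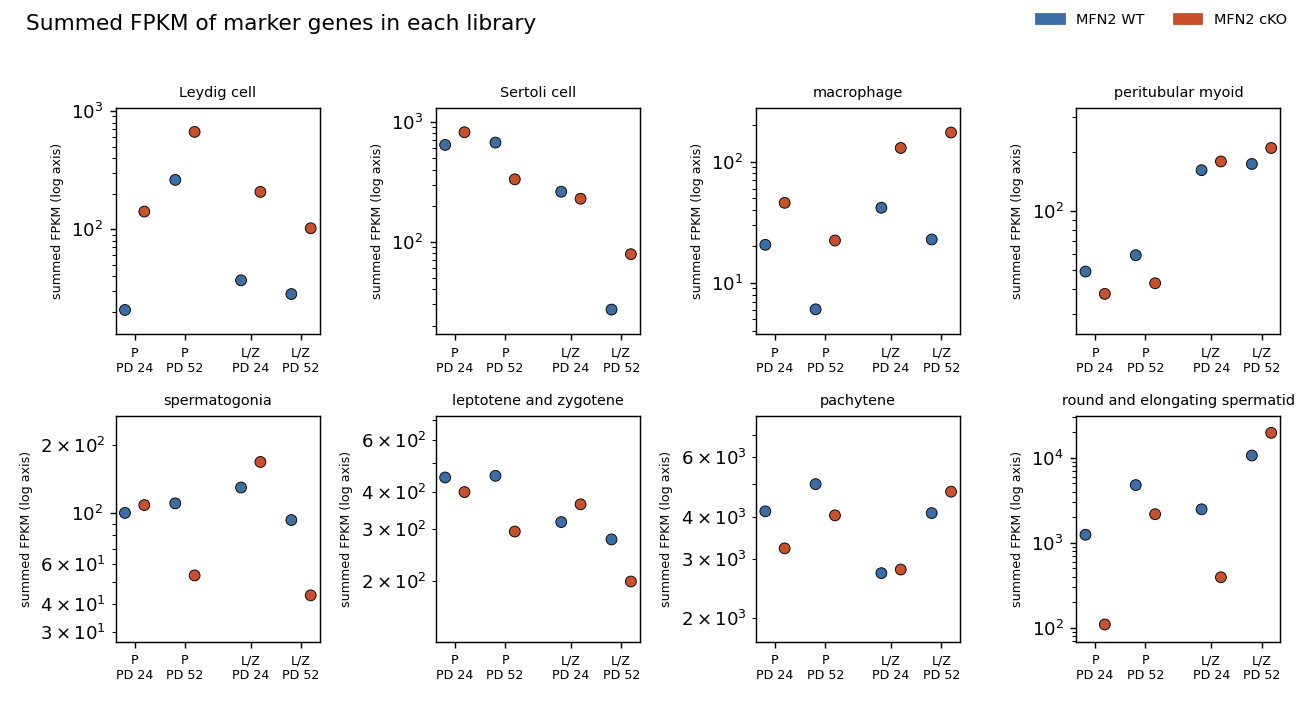
Summed FPKM (log axis) of the marker genes of 8 cell types, 1 point per library, by stage and age, with MFN2 WT in blue and MFN2 cKO in orange. Spermatid genes span 109 to 19765 FPKM and are lowest in the 2 MFN2 cKO libraries of PD 24, Sertoli genes are higher in P, and Leydig genes are higher in MFN2 cKO in each of the 4 pairs.

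In the coordinates of the table, which are those of GRCm38, the genes of the first steps lie apart in the genome: Cs (ENSMUSG00000005683) at chr10:128337734-128362479, Idh3a (ENSMUSG00000032279) at chr9:54586334-54604661, Idh3b (ENSMUSG00000027406) at chr2:130279309-130284547 and Idh3g (ENSMUSG00000002010) at chrX:73778963-73786897. The genes of the middle steps are Ogdh (ENSMUSG00000020456) at chr11:6291633-6356642, Suclg1 (ENSMUSG00000052738) at chr6:73248382-73276911 and Sdha (ENSMUSG00000021577) at chr13:74322254-74350280. Those of the last steps are Fh1 (ENSMUSG00000026526) at chr1:175600374-175625635 and Mdh2 (ENSMUSG00000019179) at chr5:135778480-135790398. Idh3b, Idh3g, Sdha and Fh1 are on the minus strand and the other 5 on the plus strand. The deposited values are per gene, and transcripts of 1 gene were not told apart.

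All 9 genes were expressed in every library, at 3.10 to 50.0 FPKM. Sdha, the catalytic flavoprotein of succinate dehydrogenase, had the highest mean (43.2 FPKM, higher than 92.7% of the genes tested), followed by Suclg1, the shared subunit of succinyl-CoA ligase (38.7 FPKM). Sdha was the highest of the 9 in 6 libraries and Suclg1 in 2, P MFN2 WT and L/Z MFN2 cKO of PD 52. Idh3b (25.7) and Ogdh (23.5), the E1 component of the 2-oxoglutarate dehydrogenase complex, came next, then Mdh2 (16.7), the mitochondrial malate dehydrogenase, and Cs (13.6), the citrate synthase that opens the cycle. Fh1 (8.71), the fumarase, Idh3a (6.03) and Idh3g (5.80) had the lowest means, with Idh3g above 61.9% of the genes tested. Every gene in this order overlapped its neighbour in range over the 8 libraries, so that only genes farther apart were separated: Sdha, for instance, had 33.9 to 50.0 FPKM and Idh3b 21.2 to 30.4. The 9 genes summed to 161 to 207 FPKM per library, lowest in L/Z MFN2 cKO of PD 52 and highest in L/Z MFN2 cKO of PD 24.

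**Figure D2:**
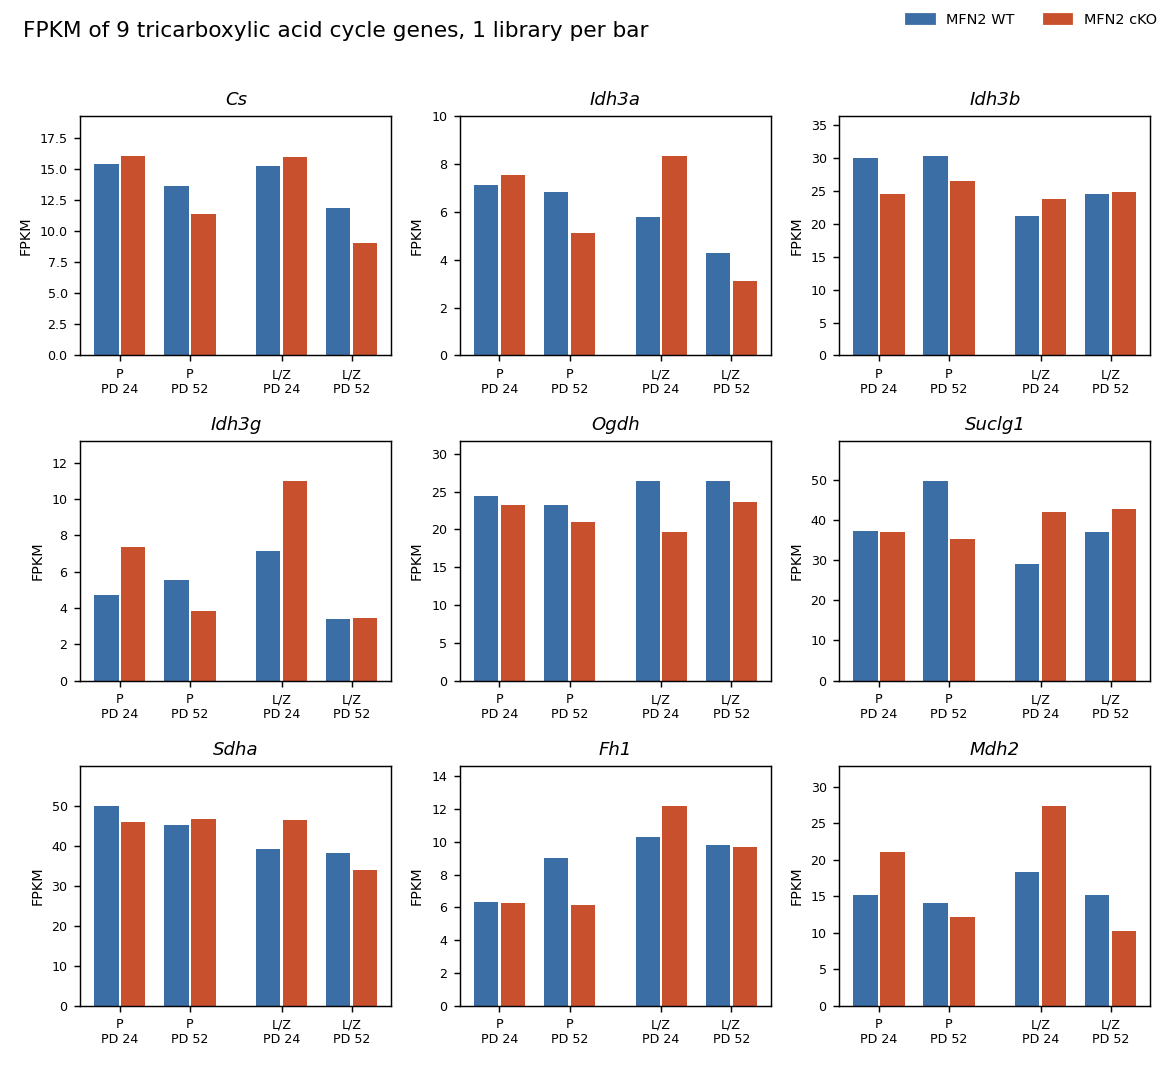
FPKM (linear axis from 0, scaled for each gene) of the 9 genes, 1 bar per library, by stage and age, with MFN2 WT in blue and MFN2 cKO in orange. Sdha, Suclg1, Idh3b and Ogdh stay within 19.7 to 50.0 FPKM, while Idh3a, Idh3g and Mdh2 have their highest bar in L/Z MFN2 cKO of PD 24.

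The 3 subunits of NAD-dependent isocitrate dehydrogenase, which turns isocitrate into 2-oxoglutarate, were not measured at equal levels. Idh3b, a regulatory subunit, had 2.84 to 8.02 times the FPKM of the catalytic subunit Idh3a (median 4.32) and 2.16 to 7.31 times that of the other regulatory subunit, Idh3g (median 5.94). The ratio to Idh3a was highest in L/Z MFN2 cKO of PD 52, where Idh3b had 24.9 FPKM and Idh3a 3.10, and lowest in the same cells of PD 24, where they had 23.7 and 8.36. Idh3g lies on the X chromosome, whose genes are largely silenced in pachytene cells of the mouse, and the other 8 genes are autosomal. Its level in P (3.85 to 7.36 FPKM) overlapped that in L/Z (3.36 to 11.0 FPKM), and at PD 24 it was lower in P in both genotypes (ratio 0.657, 95% counting interval 0.558 to 0.773, in WT, and 0.670, 0.585 to 0.766, in cKO), while at PD 52 it was higher in P in WT (1.64, 1.32 to 2.04) and its interval held 1 in cKO (1.12, 0.881 to 1.42).

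The first question was whether loss of MFN2 changed the transcripts of the cycle. None of the 9 genes was called for a genotype effect common to the 4 pairs, by limma (0 of 9, and 0 of 9 at an unadjusted p under 0.05) or by limma-voom on recovered reads (0 of 9). Across all genes 0.137% were called (29 genes, 28 of them higher in cKO) and 6.93% had an unadjusted p under 0.05. The effects ran from -0.19 for Ogdh to 0.18 for Idh3g on the log2(FPKM + 1) scale, with a median of -0.05 over the 9 genes and of -0.04 over all genes tested. The 95% interval of Ogdh was -0.54 to 0.16 and that of Idh3g -0.31 to 0.67, so the data allow effects within these intervals. For none of the 9 did the 4 cKO libraries lie apart from the 4 WT libraries, which was the case for 0.911% of all genes.

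Within single pairs the 9 genes differed by less than 2-fold throughout. At PD 24 in P cells, 4 of the 9 were higher in MFN2 cKO and 5 lower, at ratios of 0.817 to 1.57, while 37.9% of all genes were higher and 8.08% differed at least 2-fold on the log2(FPKM + 1) scale. The 95% counting interval lay above 1 for 2 of the 9 and below 1 for 2, against 18.1% and 38.2% of all genes, and 17.5% and 50.4% of genes with at least 626 reads in the pair, the number for the member with the fewest. At PD 24 in L/Z cells, 8 of the 9 were higher, at ratios of 0.747 to 1.54, while 57.0% of all genes were higher and 10.5% differed at least 2-fold. The interval lay above 1 for 7 of the 9 and below 1 for 1, against 37.8% and 25.9% of all genes. Among genes with at least 892 reads, the fewest of a member here, the shares were 45.2% and 32.2%. At PD 52 more of the 9 were lower than higher in cKO in both pairs. In P cells 8 of the 9 were lower in cKO, at ratios of 0.682 to 1.03 over the 9, while 45.6% of all genes were higher and 11.0% differed at least 2-fold. The interval lay below 1 for 8 of the 9 and above 1 for 0, against 35.4% and 27.2% of all genes, and 44.9% and 31.6% of genes with at least the 390 reads of the lowest member. In L/Z cells 6 were lower and 3 higher, at ratios of 0.675 to 1.16, while 53.0% of all genes were higher and 7.95% differed at least 2-fold. The interval lay above 1 for 1 of the 9 and below 1 for 5, against 29.5% and 24.8% of all genes, and 35.4% and 31.2% of those with at least 272 reads. The intervals cover counting error only and say nothing of the difference between mice.

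**Figure D3:**
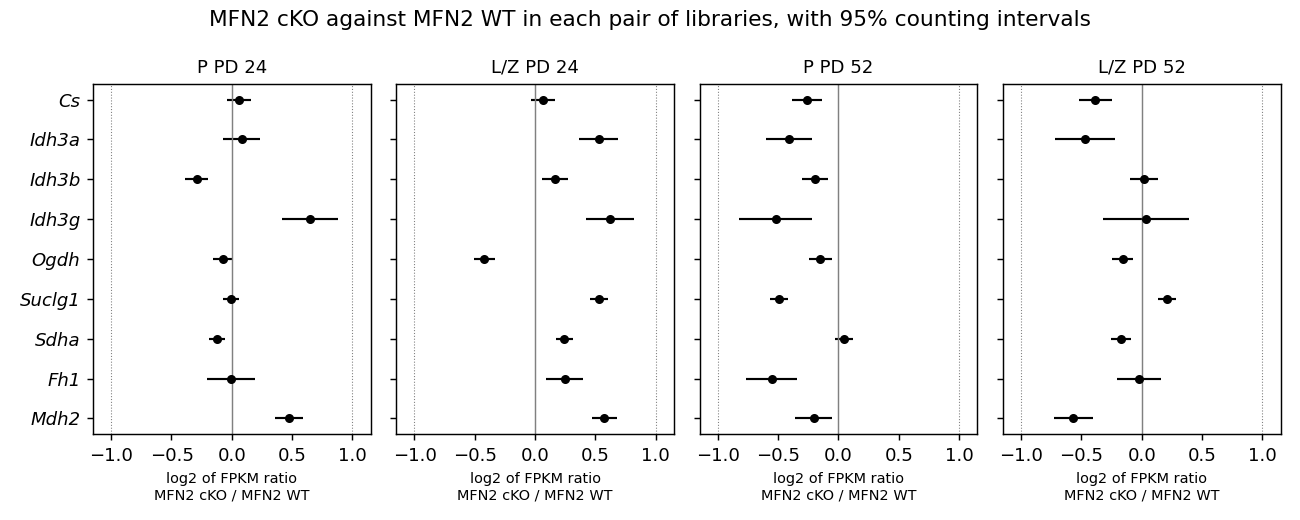
FPKM ratio of MFN2 cKO to MFN2 WT (log2 axis) for the 9 genes in each of the 4 pairs, with bars for the 95% counting interval, a solid line at equal levels and dotted lines at a ratio of 2 either way. No point reaches a dotted line, 8 of 9 points lie to the right in L/Z cells of PD 24, and 8 of 9 lie to the left in P cells of PD 52.

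Ogdh was the one gene of the 9 that was lower in MFN2 cKO in all 4 pairs. The share of all genes that kept 1 direction in all 4 pairs is not given here. In P cells it had 23.2 FPKM in cKO and 24.4 in WT at PD 24, and 21.0 and 23.3 at PD 52. In L/Z cells it had 19.7 and 26.3 at PD 24, and 23.7 and 26.4 at PD 52. The 4 cKO values reached up to 23.7 and the 4 WT values down to 23.3, so the groups overlapped slightly. The order held in all 4 pairs under a further scaling of the libraries. The ratio was lowest in L/Z cells of PD 24 (0.747, 95% counting interval 0.704 to 0.793) and nearest to 1 in P cells of PD 24 (0.951, 0.899 to 1.01). The common effect, -0.19 with an SE of 0.15, did not pass the test (limma adjusted p = 0.866).

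The second comparison was between ages, PD 52 against PD 24. None of the 9 genes passed the adjusted threshold (0 of 9 by limma and 0 of 9 by limma-voom), while 17.3% of all genes did. At an unadjusted p under 0.05 there were 4 of the 9, beside 37.6% of all genes, so the share is near that of all genes. These 4, Cs, Idh3a, Idh3g and Mdh2, all had lower mean levels at PD 52. The median effect was -0.15 over the 9 genes and 0.00 over all genes tested, and the other 5 genes had effects between -0.15 (Sdha) and 0.18 (Suclg1).

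Cs had 15.4 FPKM in P WT, 16.1 in P cKO, 15.2 in L/Z WT and 16.0 in L/Z cKO at PD 24. At PD 52 the same cells had 13.6, 11.4, 11.8 and 9.07. The ages did not overlap for Cs, and the effect was -0.43 with an SE of 0.15 (limma adjusted p = 0.0983). Mdh2 had 15.1, 21.0, 18.4 and 27.4 FPKM at PD 24 in the same order, and 14.0, 12.1, 15.1 and 10.2 at PD 52. Its lowest value at PD 24 and its highest at PD 52 were nearly equal, so the ages were only just apart, and the effect was -0.61 with an SE of 0.23 (adjusted p = 0.110, limma). Such a separation of the ages, 2 of the 9 genes, was found in 13.4% of all genes.

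Idh3a, the catalytic subunit, had 7.14, 7.56, 5.80 and 8.36 FPKM at PD 24 and 6.83, 5.13, 4.29 and 3.10 at PD 52, again in the order P WT, P cKO, L/Z WT and L/Z cKO. Idh3g had 4.70, 7.36, 7.15 and 11.0 at PD 24 and 5.52, 3.85, 3.36 and 3.44 at PD 52. Both genes had overlapping ages, and Idh3g was higher at PD 52 in P WT alone. The effects were -0.52 with an SE of 0.21 for Idh3a (limma adjusted p = 0.126) and -0.73 with an SE of 0.27 for Idh3g (0.104). Leaving out P WT, the pair that went the other way, raises the effect of Idh3g by construction. Without that pair Idh3g passed the threshold with an effect of -1.04 (limma adjusted p = 0.0377), which is no separate support.

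For these 4 genes the ratio of PD 52 to PD 24 was farthest from 1 in L/Z MFN2 cKO. There it was 0.568 for Cs (95% counting interval 0.521 to 0.619), 0.371 for Idh3a (0.319 to 0.431), 0.313 for Idh3g (0.257 to 0.379) and 0.372 for Mdh2 (0.337 to 0.411). In P WT it was nearer to 1 for each, at 0.884 for Cs, 0.956 for Idh3a, 1.17 for Idh3g and 0.927 for Mdh2. The libraries of these pairs also differed in other cell types: in L/Z MFN2 cKO the spermatid genes summed to 393 FPKM at PD 24 and 19765 at PD 52, the spermatogonial genes to 168 and 43.6 and the Sertoli genes to 228 and 78.7. The part of these cells in the values of the 4 genes was not tested.

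Across the 8 libraries Cs, Idh3a, Idh3g and Mdh2 had like profiles, with a Pearson r of 0.78 to 0.93 for the 6 pairs among them (median 0.82), beside -0.52 to 0.84 for the other 30 pairs of the 9 genes (median -0.06). The 4 were grouped after their values had been seen, and the points share age, stage and cell composition, so this is a description over 8 libraries. The windows around the annotated transcription starts of Cs, Idh3g and Mdh2 are printed for comparison of these co-varying genes, from RefSeq on GRCm38.p6, each with 250 bases before the start and 50 after it. Capitals mark matches, on either strand, to the CRE (TGACGTCA), ETS (CCGGAAG), GC box (GGGCGG) and CCAAT motifs, none of which contains another.
Cs, chr10:128337477-128337776, + strand: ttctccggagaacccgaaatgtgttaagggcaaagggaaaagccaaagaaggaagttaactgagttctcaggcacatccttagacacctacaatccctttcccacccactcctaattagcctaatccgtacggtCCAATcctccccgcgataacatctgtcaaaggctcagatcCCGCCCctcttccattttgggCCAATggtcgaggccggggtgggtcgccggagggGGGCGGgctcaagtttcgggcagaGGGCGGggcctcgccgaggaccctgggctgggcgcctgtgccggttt
Idh3g, chrX:73786848-73787147, - strand: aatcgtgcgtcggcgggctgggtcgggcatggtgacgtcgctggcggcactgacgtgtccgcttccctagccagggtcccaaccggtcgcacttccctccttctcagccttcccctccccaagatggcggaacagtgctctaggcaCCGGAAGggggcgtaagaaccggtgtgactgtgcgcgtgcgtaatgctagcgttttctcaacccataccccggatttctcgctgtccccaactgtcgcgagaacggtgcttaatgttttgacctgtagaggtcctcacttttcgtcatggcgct
Mdh2, chr5:135778399-135778698, + strand: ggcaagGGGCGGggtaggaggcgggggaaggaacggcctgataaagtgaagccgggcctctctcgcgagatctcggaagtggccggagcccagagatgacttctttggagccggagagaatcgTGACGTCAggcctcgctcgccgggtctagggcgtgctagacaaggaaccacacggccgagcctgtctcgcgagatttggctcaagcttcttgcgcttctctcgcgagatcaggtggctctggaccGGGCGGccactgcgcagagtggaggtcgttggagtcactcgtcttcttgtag
The 3 windows hold no motif in common. Cs has GC boxes and CCAAT boxes, Mdh2 has a CRE and GC boxes, and Idh3g has an ETS match. Of 32851 windows of the same length, 1.79% hold the CRE letters, 8.86% the ETS letters, 35.7% a GC box and 37.4% a CCAAT box. Of the 8 genes of the 9 with a window, the CRE was found in Ogdh and Mdh2 and the ETS match in Idh3b and Idh3g. A match of letters is a description of the sequence and was not tested as a binding site.

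The third comparison was between stages, P against L/Z. Fh1, which hydrates fumarate to malate, was the only one of the 9 called, lower in P, while 28.4% of all genes were called. In P it had 6.30 FPKM in WT and 6.26 in cKO at PD 24, and 9.02 and 6.15 at PD 52. In L/Z it had 10.3 and 12.2 at PD 24, and 9.83 and 9.66 at PD 52. Every P value lay below every L/Z value, a separation found in 15.7% of all genes and in no other of the 9. The effect was -0.54 with an SE of 0.17 and a 95% interval of -0.93 to -0.15 (limma adjusted p = 0.0467).

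The call of Fh1 lies close to the threshold. It was kept with a pseudocount of 0.1, a further scaling, protein-coding genes only and limma-voom on recovered reads. The adjusted p was 0.0944 when no gene was filtered out, 0.0547 without the mean trend of the variance and 0.0529 without the pair block, all by limma. Leaving out the WT pair of PD 24, the cKO pair of PD 24 or the cKO pair of PD 52 also ended it, with effects of -0.52, -0.44 and -0.53. In the WT pair of PD 52 the ratio of P to L/Z was 0.918 with a counting interval that held 1 (0.809 to 1.04), against 0.613 in WT at PD 24, 0.514 in cKO at PD 24 and 0.637 in cKO at PD 52. The P and L/Z libraries also stood apart in Sertoli, macrophage, peritubular myoid and spermatid genes, and their part in the level of Fh1 was not tested. Fh1 overlaps Kmo, a gene on the other strand, over 5255 bases, and Kmo was itself listed at 0.114 to 0.396 FPKM. It is not stated whether reads were counted by strand, so reads of both genes over that stretch may not have been told apart. The window at the start of Fh1, printed as that of the gene called, has a GC box and CCAAT boxes in capitals.
Fh1, chr1:175625586-175625885, - strand: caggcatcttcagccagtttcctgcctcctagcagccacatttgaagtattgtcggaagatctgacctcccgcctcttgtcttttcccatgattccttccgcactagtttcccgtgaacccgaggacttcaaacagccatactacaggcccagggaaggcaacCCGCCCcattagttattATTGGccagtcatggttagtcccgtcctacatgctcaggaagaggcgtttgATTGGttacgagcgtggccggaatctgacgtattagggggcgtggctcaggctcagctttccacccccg

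The other 8 genes had stage effects between -0.13 (Mdh2) and 0.32 (Idh3a), none of which passed the test. Idh3b was at 24.5 to 30.4 FPKM in P and 21.2 to 24.9 in L/Z, and Sdha at 45.2 to 50.0 in P and 33.9 to 46.3 in L/Z. Both had their highest values in P but overlapped between stages (effects of 0.23 and 0.25, SE 0.15 for each, limma adjusted p = 0.292 and 0.246). Suclg1 had 37.2, 37.0, 49.7 and 35.3 FPKM in P and 29.0, 41.9, 37.0 and 42.8 in L/Z, in the order WT and cKO of PD 24, then WT and cKO of PD 52. It was higher in P than in L/Z in both WT pairs (1.28 and 1.34) and lower in both cKO pairs (0.883 and 0.825), with counting intervals that did not hold 1. The difference of its genotype effect between stages was -0.61 with an SE of 0.32 (limma adjusted p = 0.972).

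The design also allows the genotype effect to be compared between ages and between stages. Between ages none of the 9 passed (0 of 9, with 0.0142% of all genes called), and 2 had an unadjusted p under 0.05, Idh3g and Mdh2, beside 12.5% of all genes. For Mdh2 the genotype effect at PD 52 minus that at PD 24 was -0.86 with an SE of 0.29 (limma adjusted p = 0.309), and for Idh3g -0.76 with an SE of 0.28 (0.357). Mdh2 had a cKO to WT ratio of 1.39 in P and 1.49 in L/Z at PD 24, and of 0.867 and 0.675 at PD 52, each with a counting interval that did not hold 1. Idh3g had 1.57 and 1.54 at PD 24, and 0.698 and 1.02 at PD 52, the last with an interval of 0.801 to 1.31.

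Mdh2, Cs and Idh3a were higher in cKO in both pairs of PD 24 and lower in both pairs of PD 52. This pattern held for 3 of the 9 genes and for 8.52% of all genes. At PD 24 the cKO values of Cs were above those of WT by a ratio of only 1.04 in P and 1.05 in L/Z, and both intervals held 1, as did that of Idh3a in P (1.06, 0.953 to 1.17). The spermatid genes moved in the same pairs: they summed to 109 FPKM in cKO and 1245 in WT in P cells of PD 24, and to 393 and 2481 in L/Z cells of PD 24, but to 2172 and 4789 in P and 19765 and 10680 in L/Z at PD 52. Their part in the levels of Mdh2, Cs and Idh3a was not tested.

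Between stages none of the 9 genes passed and none had an unadjusted p under 0.05, beside 0.0% and 4.14% of all genes. limma called 0 of the 21175 genes in that comparison, with 876 at an unadjusted p under 0.05.

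**Figure D4:**
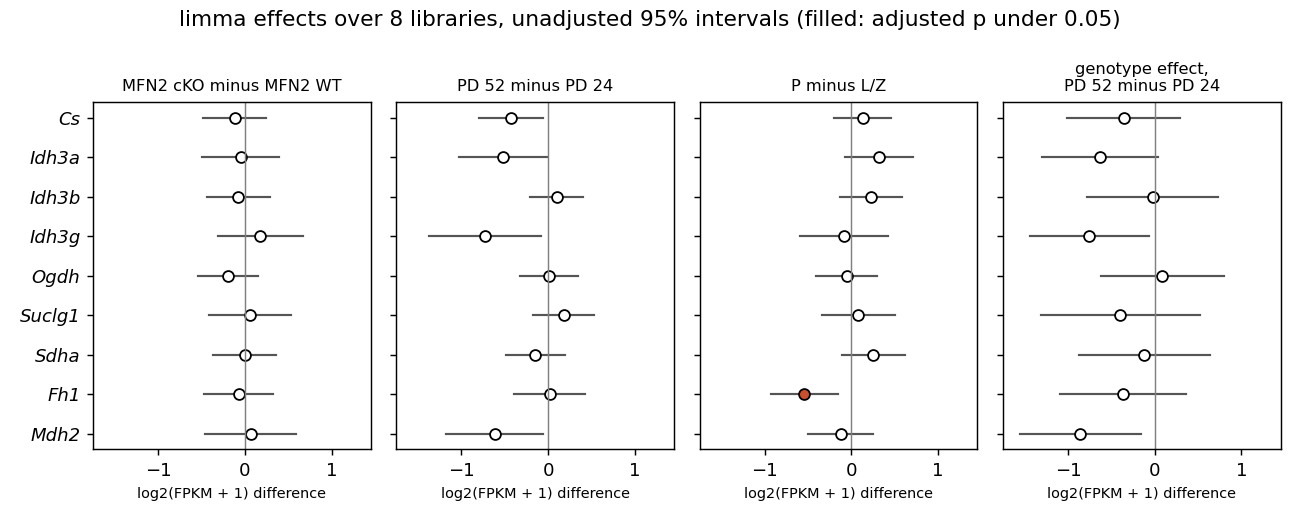
Effects of genotype, age and stage, and the difference of the genotype effect between ages, on the log2(FPKM + 1) scale for the 9 genes, as limma estimates over 8 libraries with unadjusted 95% intervals. The only filled point, past an adjusted p of 0.05, is Fh1 for P minus L/Z at -0.54, and Cs, Idh3a, Idh3g and Mdh2 lie to the left for PD 52 minus PD 24.

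The remaining subunits of the cycle were read from a list of 11 genes, none of which was called for genotype, with 1 at an unadjusted p under 0.05. That gene was Idh2, the mitochondrial NADP-dependent isocitrate dehydrogenase. It had 3.84 FPKM in cKO and 1.11 in WT in P cells of PD 24, 11.4 and 4.27 in L/Z cells of PD 24, 2.72 and 1.18 in P cells of PD 52, and 3.96 and 1.57 in L/Z cells of PD 52. It was thus higher in cKO in all 4 pairs, at FPKM ratios of 3.46, 2.68, 2.30 and 2.52 in the same order. The common effect was 1.04 on the log2(FPKM + 1) scale, with an SE of 0.15 (limma adjusted p = 0.0983). Macrophage and Leydig genes were also higher in cKO in each pair, and their part in Idh2 was not tested. By stage, Idh2 fell in P by 0.83 (limma adjusted p = 0.0334), and Ogdhl, a second form of Ogdh, and Sdhd, a membrane anchor of succinate dehydrogenase, rose by 1.10 and 0.67 (0.0173 and 0.0431). By age, Sucla2, the ATP-forming partner of Suclg1, rose at PD 52 by 0.46 (limma adjusted p = 0.0376), with 80.6 to 128 FPKM at PD 24 and 114 to 169 at PD 52. That made 1 higher and 0 lower by age, and 2 higher and 1 lower by stage, among the 11. Across all genes 17.3% were called by age and 28.4% by stage. The same libraries differed in spermatid, Sertoli and macrophage genes, as given with the marker lists, and their part in these calls was not tested.

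Partner and second forms were far from equal in level. Csl, a second citrate synthase gene, had 85.7 to 130 FPKM, 5.32 to 12.1 times the level of Cs (median 7.88), and was not called in any comparison. Its genotype effect was -0.19 with an SE of 0.15 (limma adjusted p = 0.870). Of the 50-base windows of the Cs transcripts 2.01% occur in Csl too. Of those of Csl 6.67% occur in other genes, with Cs leading. Reads over shared windows could be assigned to either gene, and their share in the value of Cs, the lower gene, was not tested. Sucla2 had 20.1 to 71.6 times the level of Suclg2, which gives the GTP-forming enzyme. Ogdh had 2.95 to 18.6 times the level of Ogdhl, with the lowest ratio in P MFN2 cKO.

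At the entry of pyruvate the germ cell form was the higher one in all 8 libraries. Pdha2, the autosomal E1 alpha subunit of pyruvate dehydrogenase made in meiotic germ cells, had 42.3 to 96.4 FPKM, and Pdha1, its X-linked counterpart, 0.734 to 4.62. The ratio of Pdha2 to Pdha1 ran from 9.51 to 131 with a median of 45.5. Pdha1 fell at PD 52 by 0.87 (limma adjusted p = 0.0198) and in P by 0.53 (0.0466), while Pdha2 rose in P by 0.64 (0.0297). Of the 14 genes of pyruvate entry, 2 were called lower and 0 higher at PD 52, Pdha1 and Pdk1, a kinase that inactivates pyruvate dehydrogenase. In P 3 rose, Pdha2, Pdhb and Dlat, which are components of the pyruvate dehydrogenase complex. Another 3 fell in P, Pdha1, the kinase Pdk3 and the phosphatase Pdp1. These counts stand beside 17.3% of all genes called by age and 28.4% by stage. Spermatid and Sertoli genes also moved by age and by stage, and their part in these calls was not tested. For genotype 0 of the 14 were called, with 1 at an unadjusted p under 0.05.

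That gene was Pdk4, another kinase of the complex and a known target of PPAR signaling. It had 3.54 FPKM in cKO and 1.19 in WT in P cells of PD 24, 5.99 and 2.26 in L/Z cells of PD 24, 4.53 and 0.621 in P cells of PD 52, and 0.994 and 0.343 in L/Z cells of PD 52. It was higher in cKO in all 4 pairs, at FPKM ratios of 2.98, 2.65, 7.30 and 2.90 in the same order, the last with a counting interval of 1.67 to 5.28. The common effect was 1.12 on the log2(FPKM + 1) scale, with an SE of 0.21 (limma adjusted p = 0.197). Here too the part of the macrophage and Leydig genes that were higher in cKO was not tested.

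**Figure D5:**
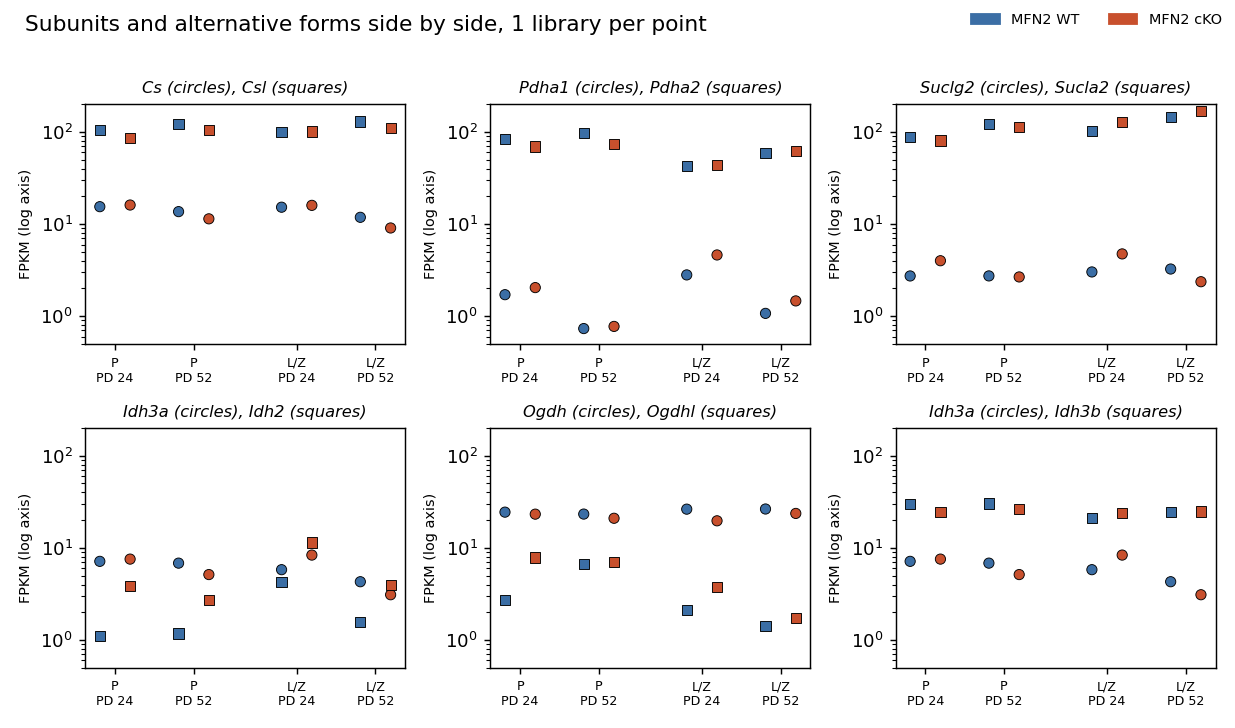
FPKM (log axis) of 6 pairs of subunits or alternative forms, 1 point per library, with MFN2 WT in blue and MFN2 cKO in orange. Csl, Pdha2 and Sucla2 lie above Cs, Pdha1 and Suclg2 in all 8 libraries, Idh3b lies above Idh3a, and Idh2 is higher in MFN2 cKO than in MFN2 WT in each of the 4 pairs.

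Among 15 side and cytosolic enzymes, 0 were called for genotype, 3 fell at PD 52 and 2 rose in P, while 17.3% of all genes were called by age and 28.4% by stage. For genotype 1 of the 15 had an unadjusted p under 0.05, Idh1, the cytosolic NADP-dependent isocitrate dehydrogenase. It had 19.9 FPKM in cKO and 12.6 in WT in P cells of PD 24, 24.9 and 11.1 in L/Z cells of PD 24, 19.1 and 12.7 in P cells of PD 52, and 8.89 and 6.10 in L/Z cells of PD 52. Its values were higher in cKO in all 4 pairs, at FPKM ratios of 1.46 to 2.24, and the common effect, 0.69 with an SE of 0.16 on the log2(FPKM + 1) scale, did not pass the test (limma adjusted p = 0.320). Macrophage and Leydig genes were higher in the same libraries, and their part in Idh1 was not tested. Those lower at PD 52 were Aco1, the cytosolic aconitase, Got2, the mitochondrial aspartate aminotransferase, and Acly, which splits citrate in the cytosol, with effects of -0.86, -0.75 and -0.81 (limma adjusted p = 0.0332, 0.0424 and 0.0229). Those higher in P were Sdhaf1 and Sdhaf2, assembly factors of succinate dehydrogenase, with effects of 0.55 and 0.69 (limma adjusted p = 0.0347 and 0.0146). The same libraries differed in spermatid and Sertoli genes, as given with the marker lists, and their part in these calls was not tested.

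The protein-coding genes whose profile over the 8 libraries was most like the mean standardised profile of the 9 were Mrpl4 (Pearson r = 0.99), a protein of the mitochondrial ribosome, Eif6 (0.98), Phb2 (0.98), a prohibitin of the inner mitochondrial membrane, Eif4a3 (0.98) and Tmed2 (0.98), out of 3216 genes above 10 FPKM in every library. The mean profile was highest in L/Z MFN2 cKO of PD 24 and lowest in L/Z MFN2 cKO of PD 52. With 8 points that share age, stage and cell composition, likeness of this size is a description.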

How the data were processed

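RNA from isolated spermatocytes was sequenced as paired-end reads in 8 libraries, 1 per group. The authors computed FPKM with Novomagic, and the table they deposited holds FPKM on a linear scale, with no column of tests. The submitters' processing notes list CASAVA 1.4, Bowtie 0.12.2 and the builds mm8 and mm9 with no role, whereas 98.26% of genes have the coordinates of GENCODE mouse release 21 (GRCm38), all 9 members included. Which aligner and build made these values is not given in the sources used here. The deposited gene length, in bases, is the one behind the FPKM. Every FPKM value gave whole reads (tolerance 0.001) when multiplied by gene length and divided by the step of its library, so a read count was recovered for each gene.

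Effects were fitted with limma 3.58.1 (R 4.3.3) on log2(FPKM + 1), with a mean trend, over genes above 1 FPKM in at least 1 library, and called at an adjusted p under 0.05. A fold change on this scale understates that of low genes. The fit of a common effect had the pair as a block, and the interactions compared pairs. Ratios within a pair have exact (Clopper-Pearson) 95% counting intervals from recovered reads. The limma script was tested on simulated data. Alternatives were a pseudocount of 0.1, no filter, a further median-of-ratios scaling (which moved libraries by up to 11.89% against each other), protein-coding genes only, no trend, limma-voom on reads, no block, leaving out each pair and, added after seeing the data, each stage alone.

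Members and lists were chosen with earlier results of these data known. Named were the 9 members, Mfn2, Csl, Ogdhl, Pdha1, Pdha2, other listed genes called by limma or past 2-fold the same way in 2 or more of the 4 genotype pairs, and the 5 genes most like the members. Other lists, cell type markers included, are given by counts and summed levels, and the single genes of them that are named, with Idh1 and Suclg2, were chosen after their values were seen.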

Additional observations from a re-analysis of the deposited data

Results flagged for a closer look

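Cs, Idh3a and Mdh2 stood out because both pairs of PD 24 were higher in MFN2 cKO and both pairs of PD 52 lower. The genotype effect at PD 52 minus that at PD 24 was -0.35 for Cs, -0.63 for Idh3a and -0.86 for Mdh2 on the log2(FPKM + 1) scale. The difference was tested with limma as an interaction, and it did not pass in any of the 3 (adjusted p = 0.637, 0.428 and 0.309).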

How the results depend on the processing

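With 1 library per group, no comparison of a single pair has a replicate. The stage call of Fh1 was the only call among the 9 genes, and the number called for stage was 0 instead of 1 with no FPKM filter, no trend, or no pair block, and 0 to 1 when a pair was left out. For age the number was 0, and 0 to 1 when a pair was left out, the 1 being Idh3g without the P WT pair. For genotype it was 0 under every alternative run, P cells alone and L/Z cells alone included. Of 441 alternative values of single genes, 409 kept direction and side of the threshold, 25 changed sign, 6 lost the call (all Fh1) and 1 gained one. The cause was not tested. No paired analysis was possible with replicate numbers because each group has 1 library, and the pair block joins libraries by stage, age or genotype.

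Under further scaling the genotype effect of Sdha became 0.032, the stage effect of Suclg1 -0.0084, the difference of the genotype effect between ages of Idh3b 0.049 and that between stages of Sdha 0.012. It also gave 6 genes higher in cKO in P cells of PD 24 and 4 in L/Z cells of PD 52, with 1 and 8 in the other 2 pairs. With L/Z libraries only, the genotype effect was 0.046 for Idh3a, 0.087 for Idh3b, 0.035 for Sdha and 0.10 for Fh1, and the age effect of Fh1 was -0.18. With P libraries only, the genotype effect of Suclg1 was -0.24 and the age effect of Ogdh -0.10. Leaving out a pair gave genotype effects of -0.22 to 0.060 for Idh3a, -0.095 to 0.24 for Suclg1, -0.081 to 0.054 for Sdha, -0.17 to 0.065 for Fh1 and -0.089 to 0.27 for Mdh2. It gave age effects of -0.068 to 0.064 for Ogdh and -0.13 to 0.13 for Fh1, and stage effects of -0.30 to 0.063 for Idh3g, -0.032 to 0.20 for Suclg1 and -0.69 to -0.44 for Fh1.

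Counts over all genes moved more. For genotype, 29 became 7 with a pseudocount of 0.1, 0 with no filter, 71 over protein-coding genes, 18 without trend, 114 with limma-voom, 3 without the block and 0 when any pair was left out or 1 stage was used. For age, 3669 became 791 with no filter and 0 to 3937 when a pair was left out, and for stage 6013 became 3010 and 0 to 5000. For the difference between ages, 3 became 74 with a pseudocount of 0.1, 204 over protein-coding genes, 624 with limma-voom and 0 under the other 3 alternatives. Genes at least 2-fold apart in a pair rose from 1354 to 2330, 1917 to 3364, 1852 to 3125 and 1420 to 2683 with a pseudocount of 0.1 (P PD 24, P PD 52, L/Z PD 24 and L/Z PD 52).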
